A study of Mus musculus with 12 samples.

Results

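The integrin and laminin chains were the 37 genes, of 37287 gene IDs in the count tables, whose symbols name an integrin alpha chain (18 genes), an integrin beta chain (8 genes) or a laminin alpha, beta or gamma chain (11 genes). The rule used symbols and no measured value, and the genes were measured by poly(A) RNA-seq in 12 libraries. All libraries came from M&M MEFs, mouse embryonic fibroblasts of the genotype MyoD-/-; Myf5-/-, and the control cells carried these alleles too. The compared groups were cells given lentivirus for MyoD at a 1x and a 2x dose (2 libraries), lentivirus for Myf5 at 1x and 2x (2 libraries), no virus (1 untransduced library), and lentivirus for GFP as control (5 libraries, at an MOI of 15, 30, 60 and 120 and at 1x). A second count table held 1x lenti-Chimera (1 library) and 1x lenti-MyoD from another virus batch that was balanced against it (1 library). Virus was left on for 24 hours with polybrene at 8 µg/ml, then the cells spent 20 hours in differentiation medium. MOI is the multiplicity of infection, and the labels do not relate it to the 1x dose. They name no promoter for the viruses, do not say which sequences the Chimera joins, and name no second culture for any dose, so the p-values measure the spread between these libraries, dose included.

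Integrins are cell surface receptors made of an alpha and a beta chain, which anchor a cell to its matrix or to other cells and connect that contact to the actin cytoskeleton. Laminins are cross-shaped proteins of an alpha, a beta and a gamma chain that build the basement membrane, the sheet of matrix around each muscle fibre. In adult muscle the chain encoded by Itga7, paired with that of Itgb1, and the dystroglycan complex hold the fibre to laminin that contains the Lama2 chain. Loss of Lama2 or of Itga7 causes muscular dystrophy in mice and in people. MyoD and Myf5 are basic helix-loop-helix factors that bind E-boxes, DNA sites of the form CANNTG.

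The promoters of the laminin alpha genes Lama5 and Lama2 are shown because these genes, with Itga7, had the largest increases with MyoD among the chains above the limit on low counts. Each window runs from 250 bases before to 50 bases after the gene start on the gene's own strand, and is RefSeq sequence of GRCm38.p6 at chr2:180225810-180226109 (minus strand) for Lama5 and chr10:27616893-27617192 (minus strand) for Lama2. Capitals mark matches to the E-boxes CAGCTG and CAGGTG on either strand; CACCTG is CAGGTG read on the other strand.
Lama5: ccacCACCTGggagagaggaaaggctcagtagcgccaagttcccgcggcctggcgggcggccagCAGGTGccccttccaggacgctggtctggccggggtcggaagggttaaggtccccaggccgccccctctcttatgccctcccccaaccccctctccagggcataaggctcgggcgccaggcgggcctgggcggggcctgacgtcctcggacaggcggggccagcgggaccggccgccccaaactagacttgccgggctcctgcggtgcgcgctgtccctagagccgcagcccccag
Lama2: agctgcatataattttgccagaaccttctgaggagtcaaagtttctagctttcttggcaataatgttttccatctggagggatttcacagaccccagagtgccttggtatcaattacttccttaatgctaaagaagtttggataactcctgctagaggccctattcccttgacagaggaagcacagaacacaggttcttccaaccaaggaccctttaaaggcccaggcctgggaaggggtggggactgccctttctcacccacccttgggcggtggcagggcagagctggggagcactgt
The Lama5 window held CACCTG 246 bases and CAGGTG 186 bases before the gene start. The Lama2 window held neither capital motif and had a single CANNTG match, CATCTG, 180 bases before the start. Over all 32851 promoter windows of the same length, 16.3% held CAGCTG, 20.2% held CAGGTG and 72.3% held CANNTG, the last of which includes every match to the first 2 motifs. A window was found for 23 of the members, of which 8 held CAGCTG, 8 held CAGGTG and 19 held CANNTG in at least 1 window. These matches describe the letters in the windows and were not tested as binding sites.

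Library totals were 68302462 to 81513727 counts in the MyoD, Myf5, untransduced and 1x GFP libraries, 17861174 to 22373706 in the 4 MOI libraries and 23679667 to 25086096 in the second table. Myod1 stood at 309 and 617 CPM (counts scaled to library size) in 1x and 2x MyoD, against 5.43 to 5.99 CPM in GFP, and Myf5 at 149.5 and 249 CPM in 1x and 2x Myf5, against 17.3 to 20.8 CPM in GFP. Counts on both genes in cells without the matching virus do not show the -/- genotype, and the labels do not say how each gene was disrupted. The Chimera library read 22.1 CPM of Myod1 and 165 CPM of Myf5. All 8 fibroblast markers were detected, and their summed level was 12422 to 17037 CPM with MyoD, 17298 to 20528 CPM with Myf5 and 23752 to 27026 CPM with GFP. The 8 skeletal muscle markers summed to 1093 to 2837 CPM with MyoD, 128 to 285 CPM with Myf5 and 2.79 to 4.07 CPM with GFP. The 4 MOI libraries differed from 1x GFP in 24.4% of the genes tested, so values against 1x GFP alone, from a fit that keeps the MOI libraries apart, stand beside those against all 5 GFP libraries. In bulk RNA, fewer cells of a type and less RNA per cell cannot be told apart.

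Of the 37 chains, 27 reached 1 CPM in at least 2 of the 10 libraries of the first table and were tested: 13 of 18 integrin alpha, 7 of 8 integrin beta and 7 of 11 laminin genes. Among them, 26 would have passed on the GFP libraries alone, and Lama5 passed only through the other groups. The 10 chains below the limit were the leukocyte integrin alpha genes Itgad, Itgae, Itgal, Itgam and Itgax, the epithelial integrin beta gene Itgb6, and Lama1, Lama3, Lamb3 and Lamc3. Their highest level in the first table was 1.61 CPM, for Itgam in 2x MyoD.

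Per kilobase of merged exon, the fibroblasts' integrin and laminin RNA was dominated by a few chains. In the GFP libraries Itgb1, the beta chain shared by most integrins that bind laminin, collagen or fibronectin, made up 57.6 to 63.8% of the summed integrin beta level. Itgb5, a partner of Itgav, made up 31.5 to 37.5%. Itga5, the alpha chain of the classical fibronectin receptor, gave 36.9 to 46.6% of the integrin alpha level, and Itgav, whose receptors bind vitronectin and latent TGF-beta, gave 27.9 to 34.1%. Among laminins in GFP cells, Lamb1 held 40.5 to 46.7%, Lamc1 24.2 to 28.0%, Lamb2 19.52 to 21.4% and Lama4 8.78 to 11.1% of the summed level per kilobase. The laminin alpha, beta and gamma sums were unequal in GFP cells, at 12.7 to 18.9, 90.2 to 104 and 34.8 to 41.6 CPM per kilobase.

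With MyoD, 4 of the 27 tested chains rose and 17 fell against the 5 GFP libraries (edgeR quasi-likelihood test, Benjamini-Hochberg adjusted p under 0.05 over 13825 genes). Of all genes tested, 42.4% were called in this comparison, 21.4% higher and 20.9% lower. The chains that rose were Lama5, Itga7, Lama2 and Itga3, all of which are laminin alpha chains or laminin-binding integrin alpha chains. Counted by family, 2 integrin alpha genes rose and 7 of 13 fell, 0 integrin beta genes rose and 5 of 7 fell, and 2 laminin genes rose and 5 of 7 fell. The median log2 fold change was -0.555 over the 27 chains and -0.03 over all genes. Leaving out Lama5, which passed the limit only outside GFP, 3 of 26 rose and 17 fell. Against 1x GFP alone, 4 rose and 13 fell, where 30.6% of all genes were called, 15.1% higher and 15.4% lower.

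**Figure D1:**
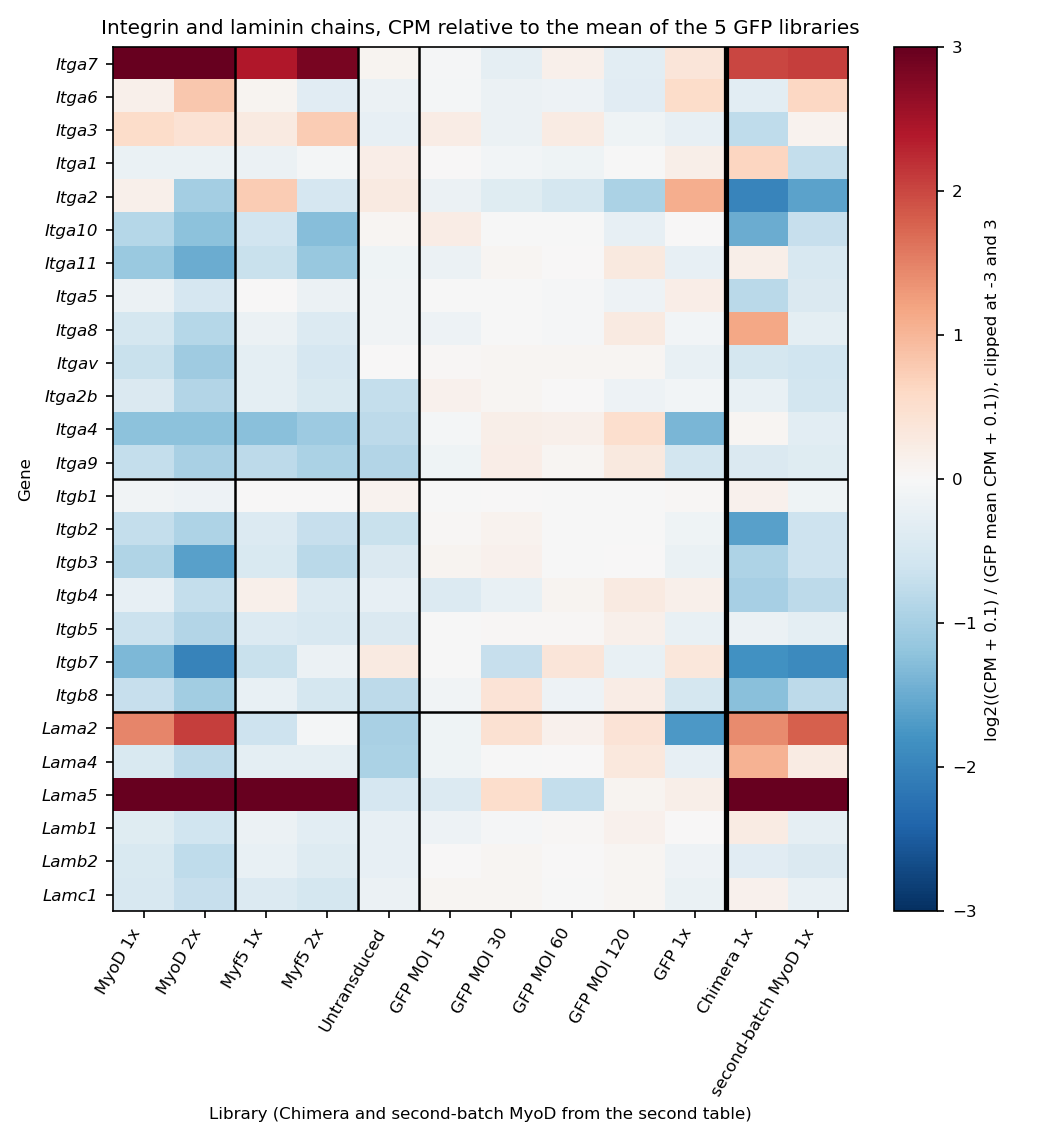
CPM of 26 tested chains in each of the 12 libraries, as log2 of (CPM + 0.1) over (mean CPM of the 5 GFP libraries + 0.1), clipped at -3 and 3, with red above and blue below the GFP mean. Rows run from integrin alpha through integrin beta to laminin chains; Itga7 and Lama5 are red in all MyoD, Myf5, Chimera and second-batch MyoD libraries, and most other rows are pale or blue with MyoD.

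**Figure D2:**
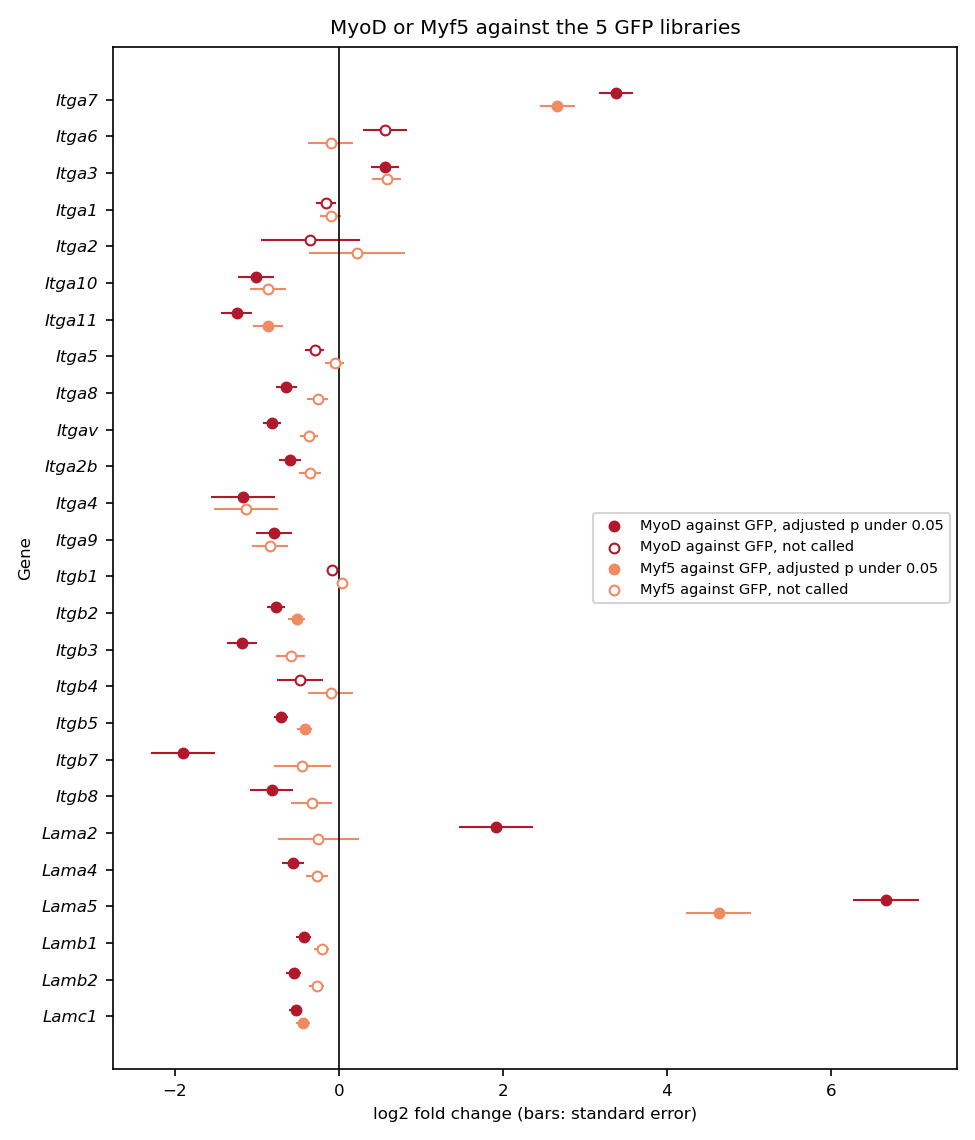
Log2 fold change (x axis) of the same 26 chains in MyoD (red) and Myf5 (orange) against the 5 GFP libraries, with standard errors as bars and filled points for an adjusted p under 0.05. With MyoD 4 points are filled to the right of 0 and 16 to the left; with Myf5 2 and 4 are.

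Of the laminin-binding integrin alpha genes, Itga7 showed the largest change. It stood at 66.5 and 93.1 CPM in 1x and 2x MyoD, at 41.6 and 57.0 CPM in 1x and 2x Myf5, and at 7.65, 6.44, 8.63, 6.18 and 10.0 CPM in the GFP libraries (MOI 15, 30, 60 and 120, then 1x). Every MyoD and Myf5 library was above every GFP library, and the untransduced library, at 8.18 CPM, lay within the GFP range. Against GFP the log2 fold change was 3.38 ± 0.21 (SE) with MyoD (edgeR adjusted p = 2.7e-05) and 2.67 ± 0.21 with Myf5 (edgeR adjusted p = 0.00047). Against 1x GFP alone it was 3.003 ± 0.29 with MyoD and 2.29 ± 0.28 with Myf5, and the calls held (edgeR adjusted p = 0.0012 and 0.012).

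Itga3, whose receptor binds laminins that contain the Lama3 or Lama5 chain, stood at 9.46 and 8.72 CPM in 1x and 2x MyoD, 7.80 and 10.9 CPM in 1x and 2x Myf5, and 7.50, 5.71, 7.598, 5.83 and 5.43 CPM in GFP. Both factors' libraries lay above all GFP libraries, in the case of 1x Myf5 by a small margin. The log2 fold change was 0.56 ± 0.17 with MyoD (edgeR adjusted p = 0.028) and 0.58 ± 0.17 with Myf5, which was not called (edgeR adjusted p = 0.075). The MyoD call on Itga3 was lost when 1x MyoD, 2x MyoD, the MOI 30 or the MOI 120 library was left out (log2 fold changes of 0.52, 0.60, 0.52 and 0.53, edgeR adjusted p of 0.114, 0.123, 0.0601 and 0.0558). Itga6, the third gene of this class, read 39.1 and 61.7 CPM in 1x and 2x MyoD, 36.9 and 27.8 CPM in Myf5, and 33.6, 31.1, 31.6, 27.6 and 51.4 CPM in GFP. Both factors overlapped GFP, since 1x GFP lay above 1x MyoD and 2x Myf5 lay within the range of the MOI libraries, and neither factor's difference passed the test (0.56 ± 0.26 with MyoD and -0.10 ± 0.27 with Myf5, edgeR adjusted p = 0.11 and 0.83).

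Set against each other per kilobase of exon, the 3 laminin-binding alpha genes changed their proportions. Itga7 made up 57.8 and 57.9% of their summed level in 1x and 2x MyoD, 48.5 and 58.5% in 1x and 2x Myf5, 18.7% in the untransduced library and 15.2 to 18.1% in GFP. Itga6 held 30.5 and 34.4% with MyoD, 38.6 and 25.6% with Myf5, and 59.3 to 72.2% with GFP. The sum of the 3 genes was 14.2 and 19.9 CPM per kilobase with MyoD, 10.6 and 12.03 with Myf5, and 4.85 to 7.89 with GFP. Exons that are merged over all isoforms set this length, so the proportions would shift with isoform use, which was not measured.

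**Figure D3:**
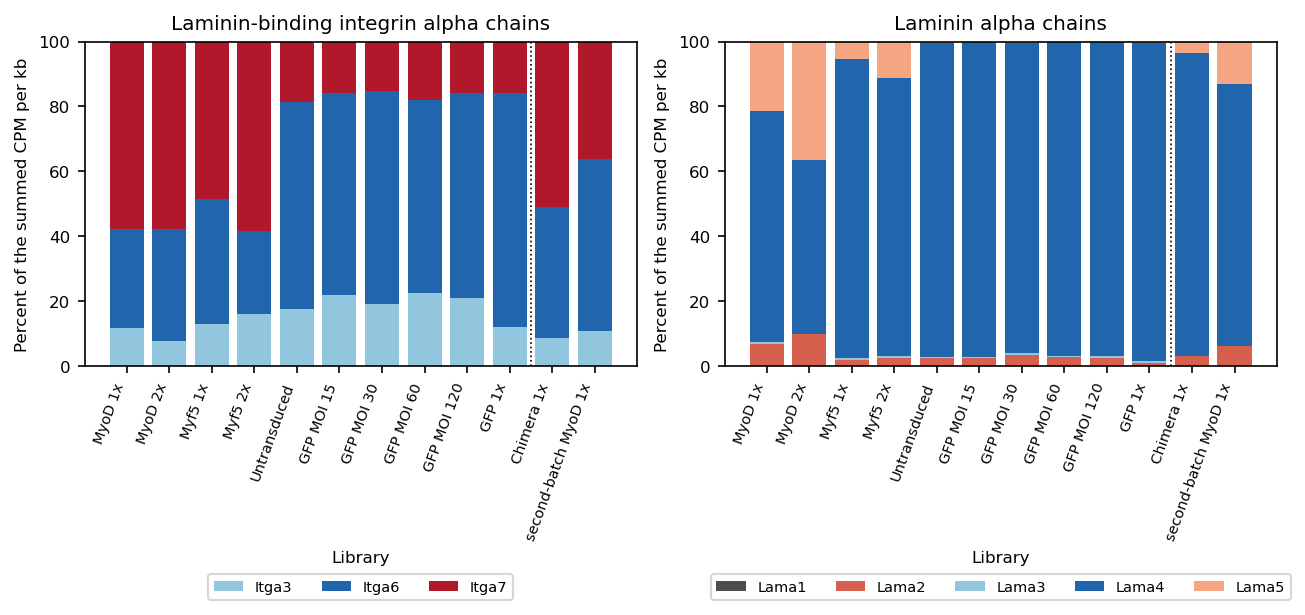
Share of each gene in the summed CPM per kilobase of merged exon (y axis, percent) for the laminin-binding integrin alpha genes (left) and the laminin alpha genes (right), in each library; the dotted line divides the first from the second count table. Itga7 takes 48.5 to 58.5% of its set in the MyoD and Myf5 libraries of the first table and 15.2 to 18.1% in GFP, and the Lama5 share reaches 36.7% in 2x MyoD.

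Of the 4 collagen-binding integrin alpha genes, Itga11 and Itga10 were called lower with MyoD. Itga11, whose receptor binds fibrillar collagen on fibroblasts, stood at 9.16 and 7.02 CPM in 1x and 2x MyoD, 12.4 and 8.92 CPM in Myf5, and 17.5, 20.8, 19.9, 24.5 and 16.6 CPM in GFP. All MyoD and Myf5 values lay below all GFP values, and the fall was 2.36-fold with MyoD (log2 -1.24 ± 0.19, edgeR adjusted p = 0.0014). Itga10, a collagen receptor chain known from cartilage, read 3.43 and 2.60 CPM with MyoD, 4.22 and 2.55 CPM with Myf5, and 7.39, 6.27, 6.21, 5.28 and 6.29 CPM with GFP. Its MyoD and Myf5 values also lay below all GFP values, at a log2 fold change of -1.01 ± 0.22 with MyoD (edgeR adjusted p = 0.0063). However, 33.5% of its exon bases are shared with the same-strand gene Gm42957, so its counts are uncertain. Itga1 and Itga2, which pair with Itgb1 as further collagen receptors, were not called with MyoD (-0.15 ± 0.12 and -0.34 ± 0.60). The 4 genes summed to 22.4 and 16.9 CPM in MyoD, 28.9 and 20.1 CPM in Myf5, and 34.5 to 38.4 CPM in GFP.

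Of the integrin alpha genes whose receptors recognise the RGD motif, 3 of 4 fell with MyoD. Itgav stood at 198 and 149.96 CPM in 1x and 2x MyoD, 257 and 223 CPM in Myf5, and 326, 330.5, 327, 328 and 269 CPM in GFP. These groups did not overlap, and the MyoD fall was 0.81 ± 0.11 on the log2 scale (edgeR adjusted p = 0.00094). Itga8, which binds nephronectin, read 23.5 and 18.7 CPM with MyoD, 30.2 and 25.6 CPM with Myf5, and 30.7, 33.5, 33.0, 40.8 and 32.0 CPM with GFP (MyoD against GFP -0.64 ± 0.13, edgeR adjusted p = 0.005). Itga2b, the alpha chain of the platelet fibrinogen receptor, read 9.47 and 6.84 CPM with MyoD, 10.4 and 9.20 CPM with Myf5, and 14.0, 13.4, 12.8, 11.4 and 12.1 CPM with GFP (-0.59 ± 0.14, edgeR adjusted p = 0.0085). All MyoD values of Itga8 and Itga2b lay below all GFP values, while 0 of 5 platelet and megakaryocyte markers reached 1 CPM in any library. The untransduced library read 7.73 CPM of Itga2b, between the 2 MyoD values of that gene. Itga5 was lower in both MyoD libraries than in all GFP libraries (159 and 127 CPM, against 163 to 207 CPM) but was called only against 1x GFP alone (-0.29 ± 0.12 against all 5 and -0.52 ± 0.12 against 1x, edgeR adjusted p = 0.073 and 0.016).

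Itga4 and Itga9, related chains that bind fibronectin splice forms, VCAM and tenascin, differed between the MOI libraries and 1x GFP. Itga4 read 25.2 CPM in both 1x and 2x MyoD, 24.9 and 27.8 CPM in Myf5, and 56.7, 67.2, 66.3 and 83.9 CPM in GFP at an MOI of 15 to 120, but 22.8 CPM in 1x GFP. All factor libraries therefore lay below the MOI libraries and above 1x GFP. Its fall with MyoD (-1.17 ± 0.39, edgeR adjusted p = 0.038) turned to 0.15 ± 0.19 against 1x GFP alone (edgeR adjusted p = 0.58). Itga9 read 3.82 and 3.14 CPM with MyoD, 3.62 and 3.21 CPM with Myf5, and 5.77, 7.22, 6.57, 7.68 and 4.26 CPM with GFP. All MyoD and Myf5 values of Itga9 lay below all its GFP values. Its MyoD call (-0.79 ± 0.22, edgeR adjusted p = 0.018) was nevertheless lost against 1x GFP alone (-0.28 ± 0.20). The Itga4 call was also lost without any single library of MyoD, Myf5 or the MOI series (-1.01 to -1.19, edgeR adjusted p = 0.0544 to 0.191).

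The integrin beta genes had 5 falls and 0 rises among 7 with MyoD (edgeR; the same number, 5, had an unadjusted p under 0.05). Itgb1 itself stood at 695 and 677 CPM in 1x and 2x MyoD, 755 and 759.9 CPM in Myf5, and 747, 757, 747, 746 and 768 CPM in GFP. Its MyoD libraries lay below the GFP range, but the difference was -0.08 ± 0.05 and not called (edgeR adjusted p = 0.24). Itgb5 read 244 and 209 CPM with MyoD, 287 and 275 CPM with Myf5, and 381, 393, 390.5, 423 and 329 CPM with GFP (MyoD -0.70 ± 0.09, edgeR adjusted p = 0.00062). Itgb3, the other common partner of Itgav, read 28.4 and 17.0 CPM with MyoD, 38.7 and 30.2 CPM with Myf5, and 55.7, 57.6, 52.1, 53.2 and 46.1 CPM with GFP (MyoD -1.17 ± 0.18, edgeR adjusted p = 0.0015). For both Itgav partners every factor library lay below every GFP library. Itgb8, which pairs with Itgav to activate TGF-beta, read 2.04 and 1.59 CPM with MyoD, 2.85 and 2.31 CPM with Myf5, and 3.09, 4.48, 2.99, 3.94 and 2.29 CPM with GFP. Its MyoD call (-0.82 ± 0.26, edgeR adjusted p = 0.032) was lost against 1x GFP alone (-0.33 ± 0.28, edgeR adjusted p = 0.39) and without 1x MyoD, 2x MyoD, MOI 30 or MOI 120 (-0.99, -0.67, -0.70 and -0.75).

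Itgb2 and Itgb7 encode beta chains known from leukocytes. Itgb2 read 10.3 and 8.88 CPM with MyoD, 12.7 and 10.5 CPM with Myf5, and 17.4, 18.4, 16.7, 16.9 and 15.4 CPM with GFP (MyoD -0.76 ± 0.11, edgeR adjusted p = 0.00091). Itgb7 read 0.422 and 0.234 CPM with MyoD, 0.747 and 1.08 CPM with Myf5, and 1.22, 0.728, 1.61, 1.05 and 1.58 CPM with GFP (MyoD -1.90 ± 0.39, edgeR adjusted p = 0.0053). The MyoD values of both genes lay below all GFP values, whereas those of Myf5 overlapped GFP for Itgb7. Of 8 macrophage and leukocyte markers, 3 reached 1 CPM and Adgre1 had no count in any library; the list summed to 22.2 to 24.1 CPM with MyoD, 24.8 to 25.9 CPM with Myf5 and 19.0 to 27.0 CPM with GFP. Among the alpha partners of these beta chains on leukocytes, Itgal, Itgax, Itgad and Itgae were below the limit, and Itgam is described with the low genes. Itga4, another partner of Itgb7, was above the limit and is given above. Itgb4, the partner of Itga6 in epithelial hemidesmosomes, ranged from 0.807 to 1.70 CPM in the first table and was not called (-0.47 ± 0.28).

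**Figure D4:**
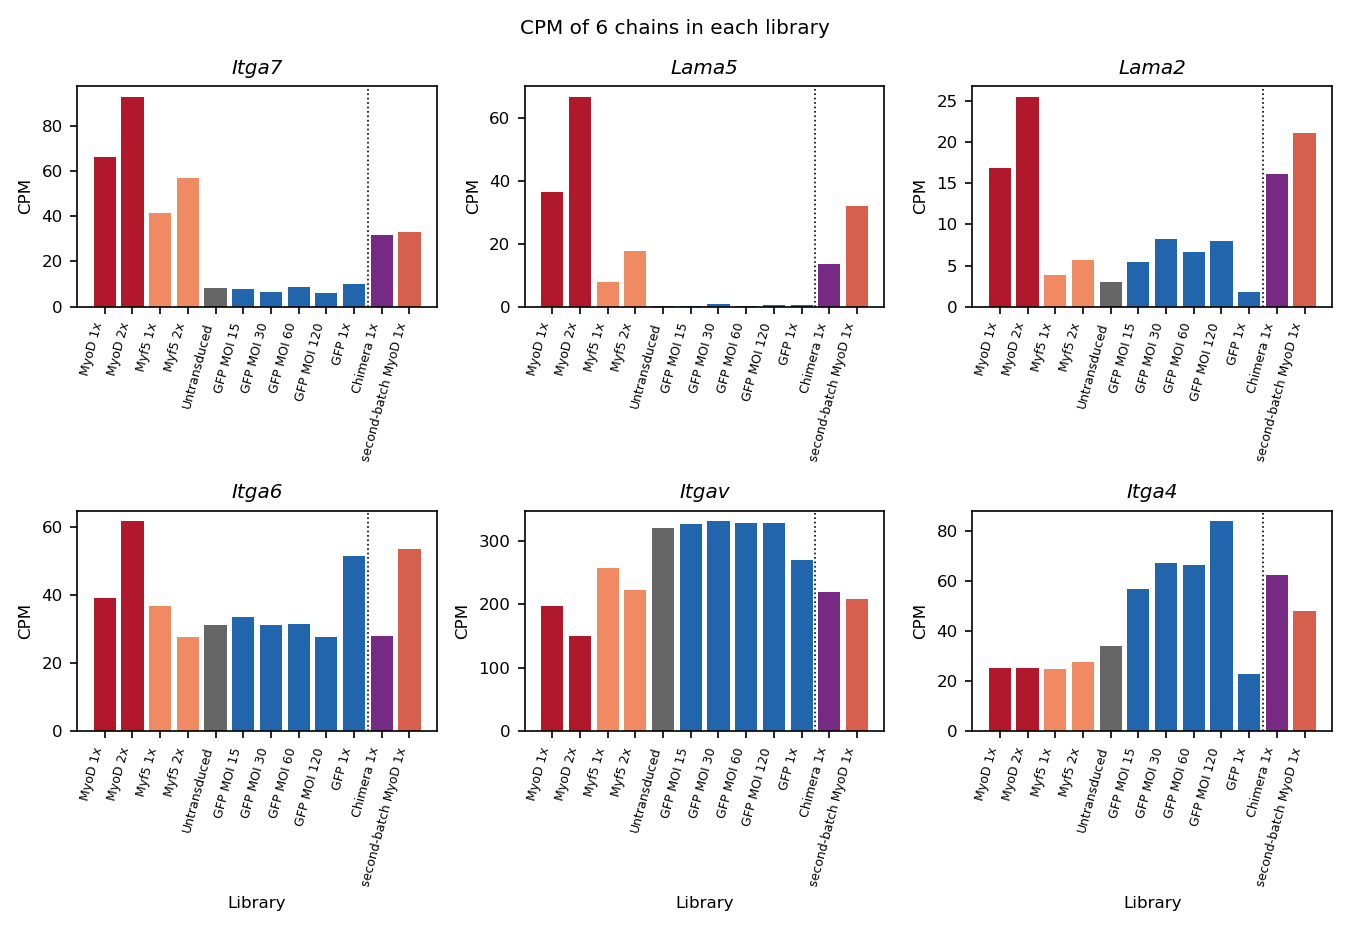
CPM (y axis, each panel from 0) of 6 chains in every library, with the tested libraries left of GFP and a dotted line before the second count table. Itga7 and Lama5 stand above GFP with both factors, Lama2 with MyoD and in the second table, Itgav is lowest in 2x MyoD, and the Itga4 and Itga6 values of 1x GFP differ from those of the 4 MOI libraries.

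On the ligand side, Lama5, an alpha chain of most adult basement membranes, was under 1 CPM in every GFP library. It stood at 36.3 and 66.8 CPM in 1x and 2x MyoD, 7.82 and 17.7 CPM in 1x and 2x Myf5, 0.330 CPM without virus, and 0.355, 0.784, 0.268, 0.548 and 0.589 CPM in GFP. No MyoD, Myf5 or GFP values overlapped. The log2 fold change was 6.67 ± 0.40 with MyoD, or 102-fold (edgeR adjusted p = 2.6e-05), and 4.63 ± 0.40 with Myf5 (edgeR adjusted p = 0.00072). Against 1x GFP alone it was 6.46 ± 0.72 and 4.42 ± 0.68 (edgeR adjusted p = 0.0017 and 0.028).

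Lama2, the alpha chain of the laminin around adult muscle fibres, passed the test with MyoD and missed it with Myf5. It read 16.9 and 25.6 CPM in 1x and 2x MyoD, 3.85 and 5.74 CPM in 1x and 2x Myf5, and 5.47, 8.23, 6.61, 7.98 and 1.74 CPM in GFP. The MyoD values lay above all GFP values, and the Myf5 values lay within the GFP range. Against the 5 GFP libraries the log2 fold change was 1.92 ± 0.45 with MyoD (edgeR adjusted p = 0.0093) and -0.25 ± 0.49 with Myf5 (edgeR adjusted p = 0.76). Since 1x GFP read lowest, the fold against it alone was larger, at 3.62 ± 0.40 with MyoD (edgeR adjusted p = 0.0016) and 1.45 ± 0.37 with Myf5 (edgeR adjusted p = 0.11). Without the 2x MyoD library the MyoD value for Lama2 was 1.56 and not called (edgeR adjusted p = 0.113).

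Other laminin chains fell with MyoD. Lama4, an alpha chain of vessel and mesenchymal laminins, stood at 129 and 103 CPM in 1x and 2x MyoD, 143 and 145 CPM in Myf5, 91.5 CPM without virus, and 161, 176, 177, 220.0 and 149.6 CPM in GFP (MyoD -0.56 ± 0.14, edgeR adjusted p = 0.012; against 1x GFP alone -0.36 ± 0.17, edgeR adjusted p = 0.14). Lamb1 read 509 and 428 CPM with MyoD, 577 and 528 CPM with Myf5, and 585, 641, 663, 716 and 654 CPM with GFP (MyoD -0.43 ± 0.09, edgeR adjusted p = 0.0069). In all these genes the factor libraries lay below the GFP range. Lamb2, the beta chain known from the synaptic basement membrane of muscle, read 137 and 110.2 CPM with MyoD, 162 and 143 CPM with Myf5, and 189.7, 197, 189.5, 195 and 169 CPM with GFP (MyoD -0.55 ± 0.09, edgeR adjusted p = 0.002). Lamc1, the gamma chain of most laminins, read 232 and 201 CPM with MyoD, 244 and 222 CPM with Myf5, and 337, 337, 319, 337 and 283 CPM with GFP (MyoD -0.52 ± 0.08, edgeR adjusted p = 0.0015). These 2 genes were also lower in each factor library than in each GFP library.

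Within the laminin alpha genes, Lama4 remained the most abundant chain per kilobase in every library. Its share was 71.4 and 53.4% in 1x and 2x MyoD, 92.3 and 86.0% in 1x and 2x Myf5, and 95.7 to 98.0% in GFP. Lama5 supplied 21.3 and 36.7% with MyoD, 5.33 and 11.1% with Myf5, and 0.155 to 0.452% with GFP, and Lama2 supplied 6.90 and 9.78% with MyoD, 1.83 and 2.52% with Myf5, and 0.843 to 3.31% with GFP. The summed laminin alpha level did not separate MyoD from GFP (15.0 and 16.0 CPM per kilobase with MyoD, 12.9 and 14.0 with Myf5, 12.7 to 18.9 with GFP). The gamma sum did (28.5 and 24.7 with MyoD, 29.9 and 27.4 with Myf5, 34.8 to 41.6 with GFP), as did the beta sum (74.0 and 61.4 with MyoD, 84.9 and 76.7 with Myf5, 90.2 to 104 with GFP).

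The calls were also read with the 2x MyoD library left out. That fit has 1 MyoD library, so an effect of dose and one of fewer libraries cannot be told apart. Without 2x MyoD, 9 of the 27 chains were called against GFP, where 13.4% of all genes were: Lama5, Itga7, Itgav, Itga11, Itgb2, Itgb3, Itgb5, Lamb2 and Lamc1, which were also called under each of the other 13 alternatives run. The 12 others lost the call there with the same sign, among them Itgb7 (-1.55, edgeR adjusted p = 0.0716), Itga8 (-0.50, edgeR adjusted p = 0.0771), Itga10 (-0.84, edgeR adjusted p = 0.088), Lamb1 (-0.32, edgeR adjusted p = 0.10), Itga2b (-0.39, edgeR adjusted p = 0.102), Lama4 (-0.42, edgeR adjusted p = 0.146), Itga9 (-0.67, edgeR adjusted p = 0.162) and Itgb8 (-0.67, edgeR adjusted p = 0.225). The summed fibroblast markers were lower in both MyoD libraries than in any GFP library, as were most chains that fell, and the summed skeletal muscle markers were higher, as were Itga7, Lama5 and Lama2; their part in these results was not tested.

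Among the chains below the limit, a fit without that limit called 4 higher with MyoD than with GFP, where 22.2% of all genes were called in either direction. Itgam, an alpha chain of myeloid cells, read 0.720 and 1.61 CPM with MyoD, 0.0732 and 0.263 CPM with Myf5, and 0 to 0.0894 CPM with GFP (log2 4.55 ± 0.59, edgeR adjusted p = 0.0003), and 68.7% of its exon bases are shared with the same-strand gene Gm49368. Itgb6 read 0.149 and 0.299 CPM with MyoD, 0.0586 and 0.0292 CPM with Myf5, and 0 to 0.0245 CPM with GFP (edgeR adjusted p = 0.0047). Lamb3 and Lamc3 had 0.248 to 0.273 and 0.422 to 0.482 CPM with MyoD, against 0 to 0.112 and 0.135 to 0.304 CPM with GFP (edgeR adjusted p = 0.044 and 0.034). All MyoD values of these 4 genes lay above all GFP values, at no more than 23, 21, 37 and 124 counts in any library for Itgb6, Lamb3, Lamc3 and Itgam. The largest value among the other 6 low chains was 0.969 CPM, in the first table, for Lama3 and Itgae in 1x GFP.

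With Myf5, 6 chains were called. Against the 5 GFP libraries 2 of 27 chains rose, Lama5 and Itga7, and 4 fell, Itga11 (-0.86 ± 0.18, edgeR adjusted p = 0.032), Itgb2 (-0.51 ± 0.10, edgeR adjusted p = 0.028), Lamc1 (-0.44 ± 0.08, edgeR adjusted p = 0.02) and Itgb5 (-0.41 ± 0.09, edgeR adjusted p = 0.031). Of all genes 6.09% were called, 3.81% higher and 2.28% lower. Leaving out Lama5, which passed the limit only outside GFP, 1 of 26 chains rose and 4 fell. The Lama5 and Itga7 calls held under all 14 alternatives. The 4 falls were lost against 1x GFP alone (-0.65, -0.42, -0.29 and -0.24), where 2 chains rose and 0 fell by edgeR, 13 had an unadjusted p under 0.05, and 1.18% of all genes were called, 1.03% higher and 0.152% lower. All 4 were lost as well without 2x Myf5, the MOI 15, the MOI 30 or the MOI 60 library, all but Itgb2 without 1x Myf5, and all but Lamc1 without MOI 120 (edgeR adjusted p = 0.0513 to 0.392 over these fits for Itga11, Itgb2, Lamc1 and Itgb5), and without 1x GFP 14 chains were called, where 36.7% of all genes were. The median log2 fold change was -0.269 over the chains and -0.00274 over all genes.

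MyoD and Myf5 share the GFP controls, so their values above are not independent of each other, and the factors were also set against each other directly, in a fit where the GFP libraries bear only on the spread. Lama5 was the only chain called in it, 2.04 ± 0.42 on the log2 scale higher with MyoD (edgeR adjusted p = 0.034), where 5.50% of all genes were called, 4.20% higher and 1.29% lower. Lama5 passed the limit only outside GFP, and 0 of the other 26 chains were called. Both MyoD values of Lama5 (36.3 and 66.8 CPM) lay above both Myf5 values (7.82 and 17.7 CPM). That call was lost when 2x MyoD, 1x Myf5, 2x Myf5 or an MOI library was left out (1.51, 1.59, 2.75 and 2.04, edgeR adjusted p = 0.288, 0.212, 0.0669 and 0.0551 to 0.0634 for Lama5). Lama2 was 2.17 ± 0.58 higher with MyoD and Itga7 0.72 ± 0.26 higher, without passing the test (edgeR adjusted p = 0.065 and 0.13), although both MyoD libraries exceeded both Myf5 libraries for each gene. With viral dose as a term in the fit, 4 chains were called where 10.1% of all genes were, 6.68% higher and 3.43% lower: Lama5 (2.09) higher with MyoD, and Itgb3 (-0.62), Itgav (-0.45) and Lamb2 (-0.29) lower (edgeR adjusted p = 0.00228, 0.0149, 0.0248 and 0.0473). The other chains had differences between -1.45 and 0.66, and the test does not show that these are alike under the 2 factors.

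The 2x dose of each factor was set against its 1x dose with a common effect for MyoD and Myf5. No chain was called by edgeR, where 0.0217% of all genes were called; 9 had an unadjusted p under 0.05, and DESeq2 called 2 where it called 2.05% of all genes, Lama5 (1.04, DESeq2 adjusted p = 2.1e-05) and Itgb3 (-0.53, DESeq2 adjusted p = 0.0052). The edgeR value for Lama5 was 1.05 ± 0.23 (edgeR adjusted p = 0.15), with 2x above 1x for both factors. Without 1x GFP in the fit of the spread, 8 chains were called, where 7.38% of all genes were, Lama5, Lama2 and Itga7 higher at 2x and Itgb3, Itga5, Itga2, Itgav and Lamb2 lower. Itga6 was higher at 2x than at 1x MyoD (log2 0.69) and lower at 2x than at 1x Myf5 (-0.40), but the difference of 1.09 ± 0.60 between these was not called (edgeR adjusted p = 1).

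Some chains varied with the amount of GFP virus. Over the MOI series of 15, 30, 60 and 120, 5 of 26 tested chains had a rising slope and 0 a falling one (edgeR), where 7.44% of all genes were called, 4.03% rising and 3.41% falling. Per doubling of MOI, Itga4 rose by a log2 of 0.17 ± 0.03 (edgeR adjusted p = 0.00042), Lama4 by 0.14 ± 0.02 (0.0007), Lamb1 by 0.09 ± 0.02 (0.001), Itga11 by 0.14 ± 0.04 (0.029) and Itga8 by 0.12 ± 0.03 (0.023). The MOI 120 library was the highest of the series for each of these genes. Without that library Itga4 (0.11, edgeR adjusted p = 0.0733), Lama4 (0.07, 0.277), Itga11 (0.09, 0.66) and Itga8 (0.05, 0.817) were no longer called, and without the MOI 15 library Lamb1 (0.08, 0.162), Itga11 (0.13, 0.316) and Itga8 (0.15, 0.0709) were not; Itga8 was lost also without MOI 30 (0.13, 0.0528), and DESeq2 called neither Itga8 nor Itga11.

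As a group against 1x GFP, a contrast chosen after seeing the data, the 4 MOI libraries were higher in Lama2 (log2 1.96 ± 0.36), Itga4 (1.53 ± 0.19) and Itga9 (0.62 ± 0.19) and lower in Itga2 (-1.64 ± 0.49) and Itga6 (-0.79 ± 0.23), so 5 of 27 chains were called where 24.4% of all genes were, 12.1% higher and 12.2% lower. For Itga2 the MOI libraries read 3.60, 3.14, 2.77 and 2.04 CPM (MOI 15 to 120), against 8.67 CPM in 1x GFP, and 1x and 2x MyoD read 4.53 and 1.94 CPM and 1x and 2x Myf5 6.88 and 2.83 CPM. The Itga2 groups of MyoD, Myf5 and GFP overlapped. Depth separates the same libraries (17861174 to 22373706 counts with the MOI series, 81513727 in 1x GFP), and so does the smooth muscle marker sum (271 to 323 CPM, against 592 CPM); their part in the result was not tested.

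The untransduced group was 1 library, assumed in the fit to vary like the other groups. Without virus, 2 chains were lower than in the 5 GFP libraries, where 8.35% of all genes were called, 5.83% higher and 2.52% lower. Lama4 read 91.5 CPM untransduced, against 149.6 to 220.0 CPM in GFP (-0.90 ± 0.19, edgeR adjusted p = 0.022), and Itgb2 read 10.5 CPM, against 15.4 to 18.4 CPM (-0.64 ± 0.14, edgeR adjusted p = 0.028). Untransduced CPM lay below every GFP library also for Itga2b, Itga3, Itga9, Itgb3, Itgb5, Itgb8, Lamb1 and Lamb2, which were not called. It lay above every GFP library for Itga1 and Itgb1, among others. The share of all genes with an untransduced value outside the GFP range was not counted. These positions therefore describe 1 library and are not shown to be particular to the chains. At 7.73, 3.38 and 1.90 CPM, Itga2b, Itga9 and Itgb8 stood between their 2 MyoD values, and Itgb5 (284 CPM) between its 2 Myf5 values. The Lama4 and Itgb2 values also lay outside their GFP ranges. Neither was called against 1x GFP alone (Lama4 -0.71 ± 0.20 and Itgb2 -0.55 ± 0.16, edgeR adjusted p = 0.088 and 0.09), where edgeR called 0 chains, 5 had an unadjusted p under 0.05 and 4.94% of all genes were called, 3.37% higher and 1.57% lower. Without the MOI 30 or MOI 60 library both calls were lost, and that on Itgb2 also without MOI 15 or MOI 120 (edgeR adjusted p = 0.0525 to 0.0634 for Lama4 and Itgb2).

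The Chimera and second-batch MyoD libraries, 1 each, have no replicate check, and differences between them carry exact 95% binomial intervals for counting error only. Of 25 chains with at least 50 counts over the pair, 4 differed at least 2-fold, as 5.0% of all such genes did (2.68% higher and 2.32% lower in Chimera). Itga8 read 75.9 CPM in Chimera and 27.9 CPM in second-batch MyoD, a ratio of 2.72 (interval 2.49 to 2.98), and Itga1 9.57 and 3.67 CPM, a ratio of 2.60 (2.03 to 3.37). Lama5 was lower in Chimera, at 13.5 and 32.1 CPM (ratio 0.421, interval 0.369 to 0.479), as was Itgb2 at 5.42 and 10.98 CPM (0.494, interval 0.398 to 0.610). Itga7 read 31.7 CPM in Chimera and 32.9 CPM in second-batch MyoD, with a ratio of 0.963 whose interval, 0.872 to 1.06, includes 1. At 1.5-fold, 9 chains differed, as 14.4% of all such genes did, adding Lama4 (1.75) and Itga11 (1.58) higher and Itga10 (0.564), Itga3 (0.541) and Itga6 (0.521) lower in Chimera. The median log2 ratio was 0.08 over the 25 chains, of which 13 were higher and 12 lower, and -0.02 over all genes. The muscle markers summed to 1121 CPM in Chimera and 2758 CPM in second-batch MyoD, and their part in these differences was not tested.

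**Figure D5:**
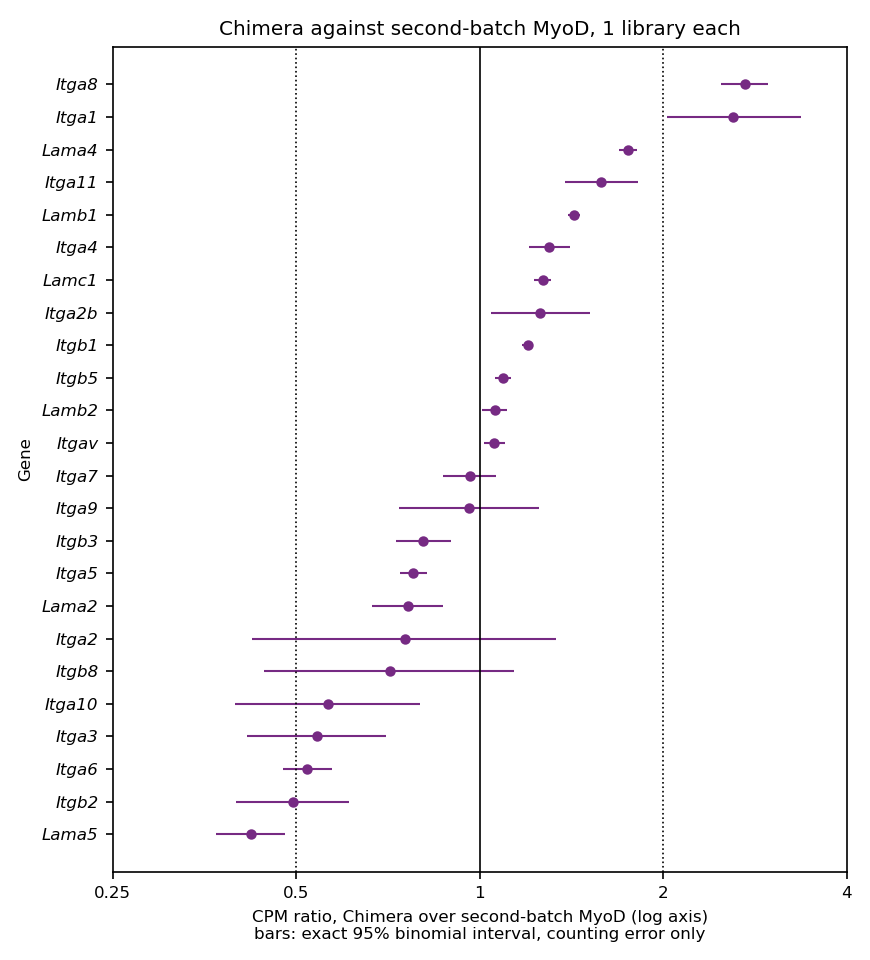
Ratio of CPM in Chimera over second-batch MyoD (x axis, log scale) for 24 chains with at least 50 counts, with exact 95% binomial intervals for counting error; dotted lines mark 2-fold. Itga8 and Itga1 lie to the right of 2, Lama5 and Itgb2 to the left of 0.5, and the interval of Itga7 crosses 1.

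Across the tables, which were not normalised together, the 1x MyoD library of the first table and the second-batch 1x MyoD library read 66.5 and 32.9 CPM of Itga7, 36.3 and 32.1 CPM of Lama5, and 16.9 and 21.2 CPM of Lama2. All of these stood above the GFP values of the first table. The Itga7 share of the laminin-binding alpha genes per kilobase was 51.0% in Chimera and 36.2% in second-batch MyoD, and the Lama5 share of the laminin alpha genes was 3.64% and 13.1%. Mitochondrial genes took 4.05 and 4.18% of counts in Chimera and second-batch MyoD and 0% in the first table, so levels are not set against each other with a test.

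Genes that work with these chains were read from 4 lists. With MyoD against the 5 GFP libraries, 42.4% of all genes were called, 21.4% higher and 20.9% lower. Of 13 tested basement membrane partners, 5 rose and 3 fell with MyoD (median -0.155): the largest changes were in Npnt (4.22 ± 0.66), which encodes the Itga8 ligand nephronectin, Fras1 (1.81 ± 0.40) and Col15a1 (1.38 ± 0.27). The collagen IV genes Col4a1 (1.00 ± 0.10) and Col4a2 (0.99 ± 0.11), whose network joins that of laminin in basement membranes, rose together (edgeR adjusted p = 0.00024 and 0.00033). Npnt and Col15a1 passed the limit only outside GFP, and of the 11 other partners 3 rose and 3 fell. Of 12 tested non-integrin laminin receptors and tetraspanins, 2 rose and 7 fell with MyoD (median -0.315), led by the tetraspanin Cd82 (3.29 ± 0.20), the laminin receptor dystroglycan Dag1 (1.64 ± 0.14) and the proteoglycan Cspg4 (-1.46 ± 0.23). Of 22 focal adhesion linkers, 6 rose and 4 fell (median -0.015), with the largest changes in the talin gene Tln2 (1.66 ± 0.08), Vasp (1.54 ± 0.14), which encodes an actin regulator, and the muscle filamin gene Flnc (0.85 ± 0.10). Of 22 other integrin ligands, 2 rose and 9 fell (median -0.279), led by Igf2 (3.63 ± 0.40), which passed the limit only outside GFP, the fibronectin gene Fn1 (-1.26 ± 0.19) and the fibrillin gene Fbn1 (-1.12 ± 0.19).

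With Myf5 the same lists gave 0 rises and 0 falls among 13 basement membrane partners by edgeR (3 had an unadjusted p under 0.05), 1 rise and 0 falls among 22 linkers (Tln2, 0.61 ± 0.08), 1 rise and 1 fall among 12 receptors and tetraspanins (Cd82, 1.29 ± 0.20, and Cspg4, -1.02 ± 0.22), and 1 rise and 2 falls among 22 ligands (Thbs1, 1.09 ± 0.23, Col3a1, -0.93 ± 0.18, and Fbn1, -0.86 ± 0.18). Over all genes, 6.09% were called with Myf5, 3.81% higher and 2.28% lower. Between MyoD and Myf5, the collagen IV genes Col4a1 (0.72 ± 0.13) and Col4a2 (0.78 ± 0.14), Dag1 (1.16 ± 0.18), Cd82 (2.00 ± 0.26) and Tln2 (1.05 ± 0.10) were higher with MyoD (edgeR adjusted p = 0.026, 0.025, 0.023, 0.023 and 0.009). In that comparison 5.50% of all genes were called, 4.20% higher and 1.29% lower. For the counts against 1x GFP alone that follow, the shares of all genes are those given with the chains. Against 1x GFP alone, MyoD gave 6 rises and 2 falls among basement membrane partners, 4 and 5 among receptors and tetraspanins, 4 and 8 among linkers, and 3 and 16 among other ligands. With Myf5 against 1x GFP alone, Tln2 was still called (0.66 ± 0.12, edgeR adjusted p = 0.04), and edgeR called 0 genes of the other 3 lists (3, 6 and 5 had an unadjusted p under 0.05 among partners, receptors and ligands). Agrn, which encodes the laminin-binding proteoglycan agrin, fell against all 5 GFP libraries (-1.21 ± 0.42, edgeR adjusted p = 0.046) but not against 1x GFP (-0.02 ± 0.37, edgeR adjusted p = 0.97).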

How the data were processed

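Poly(A) RNA-seq counts per gene were used as the authors deposited them. Per the submitters' processing notes, CASAVA 1.8.2 and TopHat2 2.0.8 were used with mm9; the counter, annotation and strand setting used are not given in the sources used here, so overlapping genes may share counts. The first deposited table (10 libraries) holds estimated counts, which need not be whole and were rounded for the tests; the second (2 libraries) holds whole counts. Symbols came from a gene ID table, and lengths from merged GENCODE vM21 exons. CPM values used library totals. Genes with 1 CPM in at least 2 libraries were tested with edgeR 4.0.16 (TMM, quasi-likelihood F test, two-sided, Benjamini-Hochberg over all genes, 6 residual degrees of freedom, biological coefficient of variation 0.157); the MOI slope was fitted on the 4 MOI libraries (2 residual degrees of freedom), and the dose effect within both factors. Alternatives were DESeq2 1.42.0, other size factors, no limit on low counts, 1x GFP alone as control, a dose term and leaving out each library. Pairs of libraries within a group differed by 1.97 to 133 times the sampling noise (chi-square per degree of freedom), so none was counted as a repeat deposit. Intervals cover counting error only. The members and lists were chosen with earlier results of these data known. 1 chain is counted but not reported here by name, value or figure; the other chains called between the virus groups are given by library, and of each pathway list the 3 called genes with the largest change are named, with further genes named after their values were seen. The marker lists were fibroblast, skeletal muscle, endothelial, macrophage and leukocyte, epithelial, platelet and megakaryocyte, Schwann and glial, and smooth muscle.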

Additional observations from a re-analysis of the deposited data

Results flagged for a closer look

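In 5 of the 27 tested chains a GFP library stood apart from the other 4 by a gap test on the 5 GFP libraries. Chance alone flags about 1 group in 20 if the libraries are alike. These were not, since the 4 MOI libraries differed from 1x GFP in 24.4% of all genes tested. The gap test was not run over all genes, so the count is not shown to be particular to these chains. In 4 of the 5 chains the library apart was 1x GFP. Itga6 read 51.4 CPM there, against 27.6 to 33.6 CPM in the MOI libraries, and Itga2 read 8.67 CPM, against 2.04 to 3.60 CPM. Itgav read 269 CPM in 1x GFP, against 326 to 330.5 CPM, and Lamb2 169 CPM, against 189.5 to 197 CPM. The remaining case was Itga8 in the MOI 120 library, at 40.8 CPM, against 30.7 to 33.5 CPM in the other GFP libraries.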

How the results depend on the processing

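Of 2018 values for single chains under other settings, 1869 kept their side of the threshold, 81 lost a call and 67 gained one. The remaining value, Itga4 with MyoD against 1x GFP alone (0.15), changed its sign and lost its call. Values called in neither fit were counted as kept even where their sign changed. An example is Lama2 with Myf5, at -0.25 against the 5 GFP libraries and 1.45 against 1x GFP alone. With MyoD against GFP, 9 to 22 chains were called when 1 library was left out (21 with all, 9 without 2x MyoD), and 5 differed at least 2-fold between 1x MyoD and 1x GFP, a comparison with no test. With Myf5 against GFP, 6 chains became 13 by DESeq2, 2 against 1x GFP alone and 2 to 14 with 1 library left out. For MyoD against Myf5, 1 chain became 2 with no limit on low counts, 5 by DESeq2, 4 with a dose term and 0 to 6 with 1 library left out. For the untransduced library, 2 became 1 with no limit, 5 by DESeq2, 0 against 1x GFP alone and 0 to 9 with 1 library left out. For dose, 0 became 2 by DESeq2 and 0 to 8 with 1 library left out; for the MOI slope, 5 became 3 by DESeq2 and 1 to 7. For Chimera, 4 at 2-fold became 9 at 1.5-fold. The counts over all genes moved as well. DESeq2 called 2140 of 13825 genes for Myf5 against GFP, where edgeR called 842. It called 1750 for MyoD against Myf5, where edgeR called 760, and 487 of 13385 for the MOI slope, where edgeR called 996. For the untransduced library DESeq2 called 2505 of 13825 genes, where edgeR called 1154. With no limit on low counts, edgeR called 937 of 25135 genes for the untransduced library and 712 for MyoD against Myf5. The 9 chains for the untransduced library came without 1x GFP, where 5143 of 13805 genes were called. The 6 chains for MyoD against Myf5 came without 1x GFP too, where 2704 genes were called. Between 1x MyoD and 1x GFP, 996 of 14886 genes differed at least 2-fold. Over all genes, the Myf5 count ran from 57 without 2x Myf5 to 5060 without 1x GFP (842 with all), and that of MyoD against GFP from 1834 without 2x MyoD to 8070 without 1x GFP (5855 with all). The causes of these shifts were not tested, and a fit with 1 library left out also has fewer samples. The labels give no replicate numbers to pair libraries by; the dose that MyoD and Myf5 share is the dose term above. Low counts limit Itgb6, Lamb3 and Lamc3, which had at most 37 counts in a library of the first table.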

Other observations

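The endothelial list summed to 7.53 to 10.7 CPM with MyoD, 10.1 to 10.6 CPM with Myf5 and 2.19 to 5.63 CPM with GFP; 2 of its 8 genes reached 1 CPM in any library, Vwf was the largest part of the sum in the MyoD and Myf5 libraries (6.97 to 9.56 CPM), and Pecam1 and Cdh5 stayed under 0.5 CPM. The epithelial list summed to 0.521 to 0.732 CPM with MyoD, 0.467 to 0.937 CPM with Myf5 and 1.14 to 2.74 CPM with GFP. Schwann and glial markers summed to 12.6 to 13.4 CPM with MyoD, 14.0 to 15.9 CPM with Myf5 and 16.0 to 23.4 CPM with GFP, and smooth muscle markers to 756 to 1271 CPM with MyoD, 562 to 584 CPM with Myf5 and 271 to 592 CPM with GFP.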
